A study of Mus musculus with 55 samples.

Results

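Myc, Ccnd1 and Cdk2 were followed across mouse cortex after diffuse traumatic brain injury (TBI), with and without a diet that depletes microglia. These 3 genes, of 799 on the panel, were chosen because they were among genes with higher values 1 day after injury, so their values at 1 day and in naive mice are given as a description, with no test. Tests of these 3 genes, of differences and of correlations alike, were made only among mice at 7 and 30 days, which that choice did not use, and other panel genes were tested in every comparison. All 3 genes had a count above 0 in all 55 mice, which is not by itself detection above background.

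The mice were adult C57BL/6 males, 8 to 10 weeks old, and each gave 1 cortical sample. Chow held PLX5622 at 1200 mg per kg, an inhibitor of the CSF1 receptor, which microglia need to survive and other macrophages also carry, or was the vehicle chow without it, and feeding began 14 days before TBI. On PLX5622 there were 6 naive mice, 8 taken 1 day after TBI, 9 taken after 7 days and 7 after 30 days. On vehicle there were 7 naive mice, 6 taken after 1 day, 7 after 7 days and 5 after 30 days. 1 naive group per diet served all 3 days, and how long the naive mice ate the diet is not stated in the labels. Tissue was taken from regions picked on neighbouring sections stained for CD11b, a surface protein of microglia and macrophages, so the samples are regions of mixed cells and not a whole cortex.

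Myc encodes a transcription factor that binds DNA as a dimer with Max, and its transcript is short-lived and made quickly after growth signals. Ccnd1 encodes cyclin D1, the growth-factor-responsive partner of Cdk4 and Cdk6, which start the phosphorylation of the retinoblastoma protein. Cdk2 encodes the kinase that, with cyclins E and A, carries a cell through entry into and passage of DNA synthesis. In adult cortex neurons have left the cycle, while glia, their precursors and endothelium can re-enter it after injury.

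On GRCm38.p6, RefSeq places Myc at chr15:61985341-61990361, Ccnd1 at chr7:144929931-144939831 and Cdk2 at chr10:128697938-128705051, and all 3 are protein-coding. Of the 3, Cdk2 has a window in the RefSeq promoter table used here, and it is shown because it is the one upstream sequence that can be set beside these values. The 250 bases before the Cdk2 start, chr10:128705052-128705301 on the minus strand, are given 5′ to 3′, with GC boxes (GGGCGG on either strand) in capitals.
Cdk2: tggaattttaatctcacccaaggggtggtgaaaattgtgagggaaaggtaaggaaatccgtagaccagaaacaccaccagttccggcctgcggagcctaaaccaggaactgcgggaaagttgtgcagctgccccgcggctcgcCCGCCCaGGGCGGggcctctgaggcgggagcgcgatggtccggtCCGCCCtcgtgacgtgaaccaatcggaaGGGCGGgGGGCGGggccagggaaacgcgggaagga
The window held 5 GC boxes, and 32.7% of 32851 RefSeq windows of this length held at least 1. Its GC content was 63.2%, against a median of 52.4% over all windows. The E-box CACGTG, bound by Myc and Max among others, was not found on either strand, nor was the STAT motif TTCNNNGAA or the AP-1 motif TGANTCA. Those 3 motifs were present in 6.02%, 7.02% and 6.75% of all windows. No motif overlapped another in the Cdk2 window.

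The deposited values are nanoString nCounter barcode counts divided by 1 size factor per mouse, called normalised counts here. Total counts ran from 176038 to 1208609 per mouse. Ccnd1 ranked 320 of 799 genes by its mean over all mice, Myc 536 and Cdk2 709. The number of barcodes counted per mouse was 75 to 1108 for Ccnd1, 24 to 284 for Myc and 4 to 29 for Cdk2, with medians of 241, 66 and 11. Counting error alone, estimated by a Poisson approximation from the barcodes counted, had a log2 SD of 0.42 for Cdk2. That estimate is 93.4% of the variance between mice of one group (SD 0.43). The same share was 27.1% for Myc and 5.84% for Ccnd1. The approximation is rough at counts as low as 4, so the share for Cdk2 is not exact. The mean of Cdk2 over all mice was 11.8, between those of Cd8a (7.69) and Cd4 (14.8), which mark T cells. In naive PLX5622 mice Cdk2 was 2.78 to 11.1, and Csf1r, the gene of the receptor the diet inhibits, was 5.57 to 15.7. No background level was estimated, so Cdk2 was not shown to lie above it, and its differences below carry this limit.

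The labelled depletion was visible in the cell markers. The summed level of 16 measured microglial markers was 198 to 365 in naive PLX5622 mice, against 2482 to 3071 in naive vehicle mice. At 1 day it was 265 to 530 in PLX5622 mice and 3377 to 4492 in vehicle mice. At 30 days it had spread to 254 to 2121 in PLX5622 mice, against 2882 to 4610 in vehicle mice. No marker on the 6 cell type lists was at 0 in every mouse of a group.

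Myc was higher at 1 day than in naive mice of the same diet, by a fitted fold of 2.11 on PLX5622 and 1.77 on vehicle, and at 7 and 30 days its medians lay within the naive range. In PLX5622 mice at 1 day it was 65.1, 68.0, 70.0, 99.0, 111, 122, 133 and 140 normalised counts (median 105), against 32.0, 35.6, 47.8, 50.2, 60.9 and 72.0 in naive PLX5622 mice (median 49.0). In vehicle mice at 1 day it was 43.8, 86.2, 93.0, 97.6, 113 and 152 (median 95.3), against 43.4 to 68.6 in naive vehicle mice (median 56.5). The groups overlapped on both diets: 5 of 8 PLX5622 mice and 5 of 6 vehicle mice at 1 day lay above every naive mouse of their diet. The fitted log2 difference was 1.08 ± 0.20 (SE) on PLX5622 and 0.83 ± 0.21 on vehicle.

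1 vehicle mouse, number 704, was the lowest of its group at 1 day, with 43.8 for Myc and 195 for Ccnd1. The mouse was not flagged for either gene by Dixon's test for outliers. It also had the lowest values of its group for Gfap, the intermediate filament of reactive astrocytes, at 1037, and for Nes, an intermediate filament of precursors and reactive glia, at 46.4. Without it the vehicle differences between 1 day and naive mice were 0.99 for Myc and 0.92 for Ccnd1.

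Ccnd1 followed Myc in size and timing at 1 day. In PLX5622 mice at 1 day it was 213, 232, 249, 403, 518, 523, 590 and 628 (median 460), against 141, 157, 162, 204, 263 and 268 in naive PLX5622 mice (median 183). In vehicle mice at 1 day it was 195, 351, 390, 432, 455 and 565 (median 411), against 168 to 270 in naive vehicle mice (median 223). Again 5 of 8 and 5 of 6 mice at 1 day lay above all naive mice of their diet, and the ranges overlapped. The log2 differences were 1.12 ± 0.21 (SE) on PLX5622 and 0.77 ± 0.22 on vehicle.

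The PLX5622 mice at 1 day fell into separate levels of Ccnd1 that followed both RNA extraction batch and nCounter cartridge. The 3 mice of batch 1 had 213, 232 and 249, and the 5 mice of batches 2 and 3 had 403 to 628. Those 3 mice were also the only ones of the group on cartridge 1, so batch and cartridge cannot be told apart here. The mouse at 213 (number 693) had the lowest total count of the series, 176038. The 3 mice of batch 1 also had the 3 lowest Gfap values of the group, 2032, 2247 and 2349, against 2353 to 4619 in the other 5. Within batches 1, 2 and 3 the log2 difference of Ccnd1 between 1 day and naive PLX5622 mice was 0.16, 1.69 and 1.48, from 1 to 3 mice per side. For Myc it was 0.57, 1.07 and 1.40 in these batches, and for Cdk2 0.069, 1.17 and 1.38. On vehicle, with 1 to 4 mice per side, the differences within the batches were 0.74, 0.75 and 1.20 for Myc, 1.03, 0.54 and 0.99 for Ccnd1, and 1.14, 0.62 and 0.32 for Cdk2. The direction was the same in every batch, and the part of the batch or the cartridge in its size was not tested.

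Cdk2 was higher at 1 day than in naive mice on PLX5622, and less so on vehicle, at levels of about 10 normalised counts. In PLX5622 mice at 1 day it was 11.0, 11.0, 11.3, 11.8, 12.1, 17.1, 18.3 and 23.5 (median 12.0), against 2.78, 5.54, 6.75, 8.28, 10.5 and 11.1 in naive PLX5622 mice (median 7.51). In vehicle mice at 1 day it was 10.7 to 21.6 (median 13.5), against 7.23 to 17.6 in naive vehicle mice (median 10.7). Of mice at 1 day, 6 of 8 on PLX5622 and 2 of 6 on vehicle lay above all naive mice of their diet. The log2 differences were 0.92 ± 0.24 (SE) on PLX5622 and 0.26 ± 0.26 on vehicle.

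The naive PLX5622 mice were the lowest group for Cdk2, and this low baseline enters each of their comparisons. In naive mice Cdk2 was lower on PLX5622 than on vehicle, with a log2 difference of -0.63 ± 0.25 (SE), while at 1 day the diets differed by 0.023 ± 0.25. Within extraction batches 1, 2 and 3 the naive difference of Cdk2 was 0.21, -0.087 and -1.18, so it was large in batch 3 and of the other sign in batch 1. The diet difference of Myc was -0.12 ± 0.20 in naive mice and 0.13 ± 0.20 at 1 day. That of Ccnd1 was -0.21 ± 0.21 in naive mice and 0.14 ± 0.21 at 1 day. At 1 day the sign of the diet difference was not the same in all batches for any of the 3 genes. Within batches 1, 2 and 3 it was -0.18, 0.52 and -0.11 for Myc, -0.90, 0.64 and 0.31 for Ccnd1, and -0.86, 0.47 and -0.12 for Cdk2, from 1 to 3 mice per side. The difference between diets in the change at 1 day, PLX5622 minus vehicle, was 0.25 ± 0.29 for Myc, 0.35 ± 0.30 for Ccnd1 and 0.66 ± 0.36 for Cdk2. Across the panel, limma at an adjusted p under 0.05 called 3.38% of genes for diet in naive mice, 4.13% for diet at 1 day and 0.125% for the difference in change, and these comparisons share mice with the one the genes were chosen on. At 1 day the medians on PLX5622 and vehicle were 105 and 95.3 for Myc and 460 and 411 for Ccnd1, in mice whose summed microglial markers were 265 to 530 on PLX5622 and 3377 to 4492 on vehicle.

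**Figure D1:**
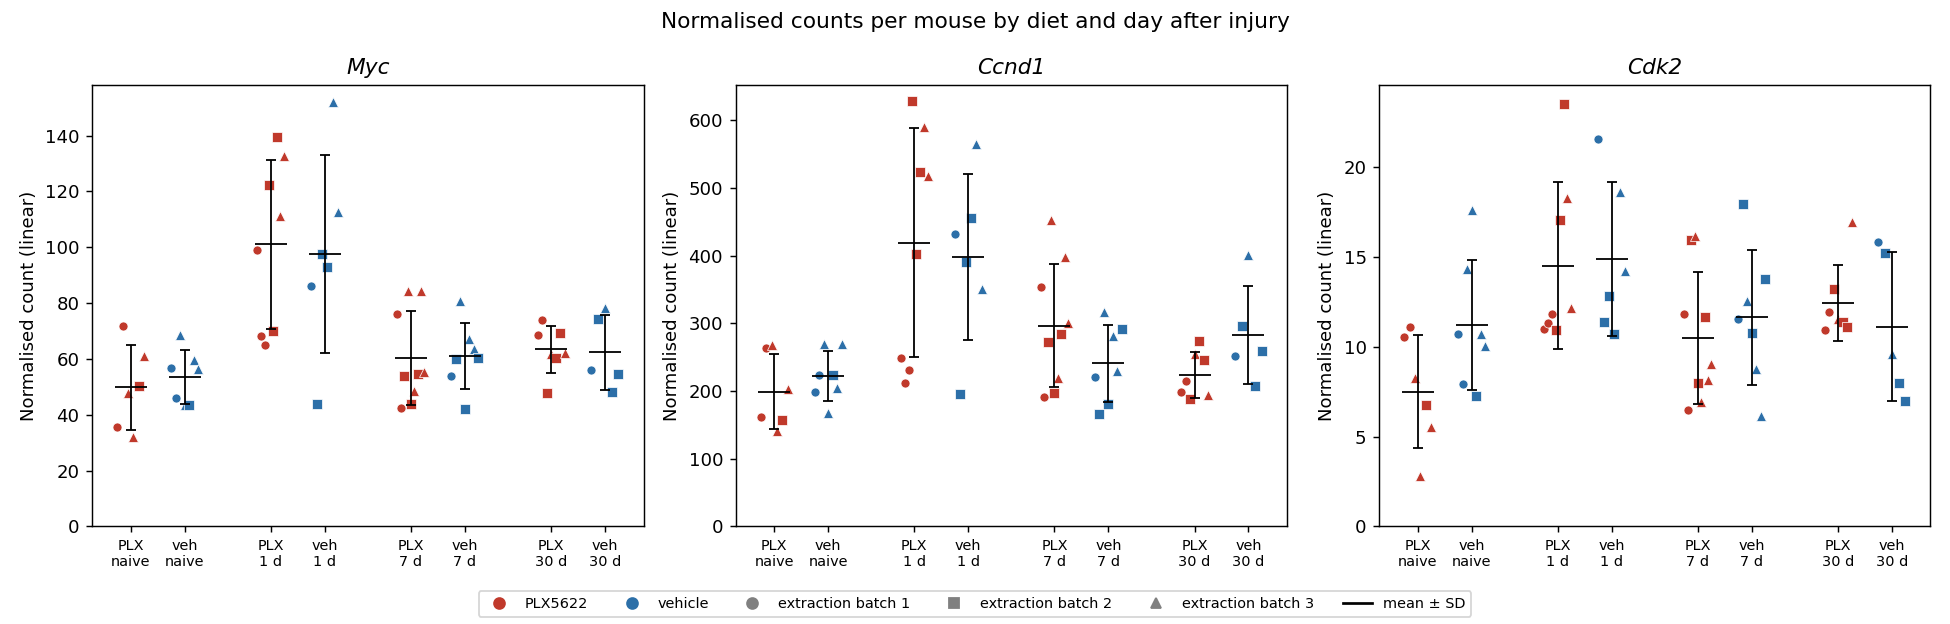
Normalised counts of Myc, Ccnd1 and Cdk2 in each mouse (linear axis, from 0), by diet and day, with PLX5622 in red and vehicle in blue, marker shapes for RNA extraction batches, and black bars for mean ± SD. Myc and Ccnd1 have their highest medians at 1 day on both diets (Myc 105 and 95.3, Ccnd1 460 and 411), and the 3 Ccnd1 values of batch 1 at 1 day on PLX5622 (213 to 249) lie below the other 5.

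At 1 day limma called 6.76% of panel genes higher and 0.25% lower on PLX5622, and 1.88% higher and 0.375% lower on vehicle. Since the 3 genes were chosen on this contrast, these shares are given beside their values and nothing is read from them. Between 7 days and naive mice 1.5% of genes were called on PLX5622 and 0% on vehicle, and between 30 days and naive mice 2.25% and 0%. Between 7 days and 1 day 2.38% were called on PLX5622 and 0% on vehicle. For the vehicle comparisons with 0% the unadjusted p was under 0.05 for 51 genes at 7 days against naive, 29 at 30 days against naive and 66 at 7 days against 1 day. For the same 3 comparisons edgeR called 9, 0 and 9 genes and DESeq2 called 12, 1 and 14.

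Both 1 day groups stood above the other 6 by median for Myc, Ccnd1 and Cdk2. For Myc the medians in PLX5622 mice were 49.0 in naive mice and 105, 54.7 and 62.1 at 1, 7 and 30 days. In vehicle mice they were 56.5, 95.3, 60.5 and 56.1 in the same order. The 6 Myc groups other than those at 1 day had medians between 49.0 and 62.1, closer together than the lowest and highest mouse of any one of them, and their order is not resolved. The Ccnd1 medians from the highest down were 460 (PLX5622, 1 day), 411 (vehicle, 1 day), 284 (PLX5622, 7 days), 260 (vehicle, 30 days), 229 (vehicle, 7 days), 223 (vehicle, naive), 214 (PLX5622, 30 days) and 183 (PLX5622, naive), and each group's range overlapped that of its neighbours. The Cdk2 medians ran from 13.5 in vehicle mice at 1 day to 7.51 in naive PLX5622 mice, and neighbours in that order overlapped too.

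Myc at 7 days was lower than at 1 day on both diets, by a log2 difference of -0.78 ± 0.18 (SE) on PLX5622 and -0.61 ± 0.20 on vehicle, and all 9 PLX5622 mice and all 7 vehicle mice at 7 days lay below the median of the 1 day mice of their diet. Against naive mice the Myc difference at 7 days was 0.30 ± 0.19 on PLX5622 and 0.21 ± 0.19 on vehicle. At 30 days it was 0.43 ± 0.20 on PLX5622 and 0.31 ± 0.22 on vehicle.

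Ccnd1 on PLX5622 lay between its naive and 1 day levels at 7 days. Its values there were 192, 198, 219, 273, 284, 301, 354, 398 and 453 (median 284), and 6 of these 9 mice lay above all naive PLX5622 mice. Vehicle mice at 7 days had 166 to 317 (median 229). The log2 difference from naive mice was 0.60 ± 0.20 (SE) on PLX5622 and 0.072 ± 0.20 on vehicle. Against 1 day it was -0.52 ± 0.18 on PLX5622 and -0.70 ± 0.21 on vehicle. At 30 days Ccnd1 had 188, 194, 198, 214, 246, 255 and 274 in PLX5622 mice (median 214) and 208, 252, 260, 296 and 401 in vehicle mice (median 260). The differences from naive mice at 30 days were 0.25 ± 0.21 on PLX5622 and 0.36 ± 0.23 on vehicle.

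Cdk2 at 7 days was 6.50 to 16.2 in PLX5622 mice (median 9.04) and 6.12 to 17.9 in vehicle mice (median 11.5). At 30 days it was 10.9 to 16.9 (median 11.6) in PLX5622 mice and 6.96 to 15.8 (median 9.60) in vehicle mice. Differences from naive mice were 0.47 ± 0.24 (SE) on PLX5622 and -0.0051 ± 0.24 on vehicle at 7 days, and 0.74 ± 0.25 on PLX5622 and -0.089 ± 0.27 on vehicle at 30 days. On PLX5622 all of these are taken from the lowest group of the 8. Between 7 days and 1 day the difference was -0.45 ± 0.22 on PLX5622 and -0.27 ± 0.25 on vehicle.

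**Figure D2:**
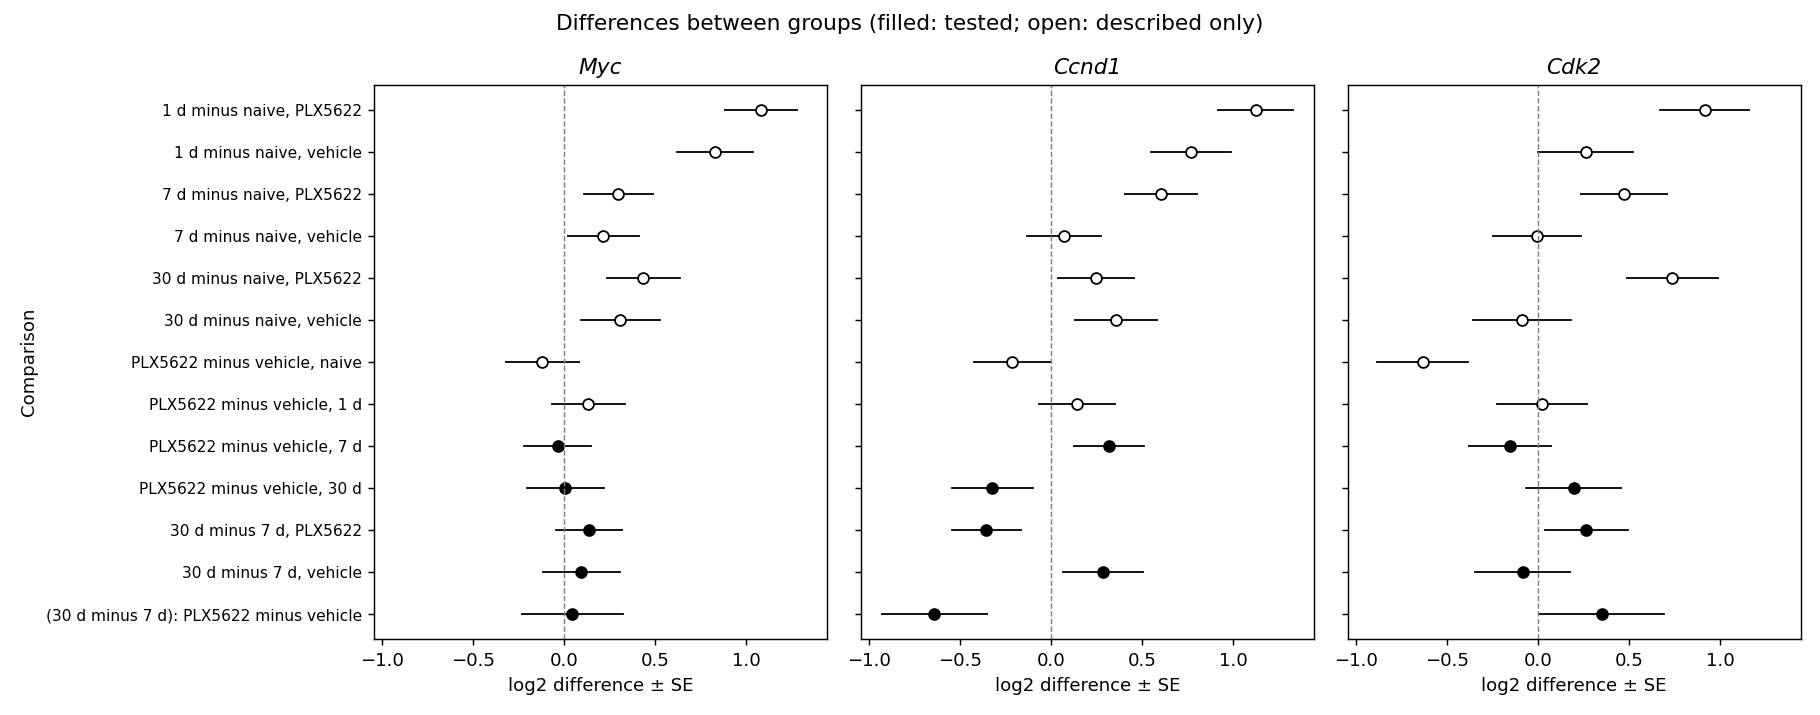
Fitted log2 differences ± SE for 13 comparisons of Myc, Ccnd1 and Cdk2, with open circles for comparisons that share mice with the one the genes were chosen on and filled circles for the tested ones. Points lie farthest right at 1 day (1.08 and 0.83 for Myc, 1.12 and 0.77 for Ccnd1), and among filled circles the one farthest from 0 is Ccnd1 in the lowest line (-0.64).

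Among mice at 7 and 30 days no difference of the 3 genes passed the threshold. In limma with Benjamini-Hochberg adjustment over 799 genes, the diet difference of Ccnd1 at 7 days was 0.32 ± 0.19 (SE; 95% interval -0.064 to 0.70; adjusted p = 0.719), with 3 of 9 PLX5622 mice above all 7 vehicle mice. At 30 days it was -0.32 ± 0.22 (interval -0.77 to 0.12; adjusted p = 0.831), with 3 of 7 PLX5622 mice below all 5 vehicle mice. Within extraction batches 1, 2 and 3 the diet difference of Ccnd1 was 0.24, 0.27 and 0.27 at 7 days, and -0.29, -0.11 and -0.85 at 30 days. These come from 1 to 4 mice per side, with 1 vehicle mouse in batch 1 at each day and 1 in batch 3 at 30 days. Myc differed between diets by -0.037 ± 0.18 at 7 days (interval -0.40 to 0.33; adjusted p = 0.986) and by 0.0059 ± 0.21 at 30 days (interval -0.42 to 0.43; adjusted p = 0.991). The intervals allow for Myc a change of up to about 0.4 log2 either way. For Cdk2 the diet differences were -0.15 ± 0.23 at 7 days (adjusted p = 0.975) and 0.20 ± 0.26 at 30 days (adjusted p = 0.850), with intervals of -0.61 to 0.30 and -0.33 to 0.72. Of all genes, 4.13% were called between diets at 7 days and 2.63% at 30 days.

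Between 30 and 7 days the difference of Ccnd1 had opposite signs on the 2 diets, and neither passed the threshold. On PLX5622 the log2 difference of 30 against 7 days was -0.36 ± 0.19 (SE; interval -0.74 to 0.027; limma adjusted p = 0.990), and all 7 mice at 30 days lay below the 7 day median. On vehicle it was 0.29 ± 0.22 (interval -0.16 to 0.73; limma adjusted p = 0.667), and 4 of 5 mice at 30 days lay above the 7 day median. Within extraction batches 1, 2 and 3 these differences were -0.34, -0.091 and -0.57 on PLX5622 and 0.19, 0.29 and 0.55 on vehicle, from 1 to 4 mice per side. The difference between these, PLX5622 minus vehicle, was -0.64 ± 0.29 (interval -1.22 to -0.059), with an unadjusted limma p of 0.0315 and an adjusted p of 0.953. It was the 1 test of the 15 on these genes with an unadjusted p under 0.05. Exact permutation tests over mice (two-sided, unadjusted) gave 0.0688 for 30 against 7 days on PLX5622, 0.283 for the same on vehicle, 0.193 for the diets at 7 days and 0.0745 for the diets at 30 days. These tests took differences of group means without the cartridge term, which were -0.36, 0.23, 0.28 and -0.31 in the same order.

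Myc at 30 against 7 days differed by 0.14 ± 0.18 (SE) on PLX5622 and 0.094 ± 0.21 on vehicle, and by 0.043 ± 0.28 between the diets, with limma adjusted p = 0.990, 0.909 and 0.986. The values for Cdk2 were 0.27 ± 0.23, -0.084 ± 0.26 and 0.35 ± 0.34, with limma adjusted p = 0.990, 0.945 and 0.953. The intervals were -0.23 to 0.50, -0.33 to 0.52 and -0.51 to 0.60 for Myc, and -0.19 to 0.72, -0.61 to 0.44 and -0.34 to 1.04 for Cdk2. Across the panel limma called 0% of genes in each of these 3 comparisons, with an unadjusted p under 0.05 for 33, 71 and 32 genes. For the same comparisons edgeR called 1, 6 and 0 genes and DESeq2 called 1, 4 and 0.

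Within groups, mice with more Myc also had more Ccnd1. After group means and cartridge were taken out of the log2 values of the 55 mice, Pearson's r was 0.78 and Spearman's rho 0.72, given as a description. Without the 2 mice farthest in Myc, r was 0.73, and within extraction batches 1, 2 and 3 it was 0.74, 0.76 and 0.82. It was 0.70 in the 13 naive mice and 0.79 in the 14 mice at 1 day. In the 28 mice at 7 and 30 days r was 0.82 and rho 0.81, each with a permutation p of 2e-05 from shuffles within groups (two-sided; 6e-05 adjusted over 3 pairs), and r was 0.77 without the 2 farthest of these mice. Ccnd1 was the gene with the highest within-group r to Myc on the panel, and 0.537% of all gene pairs had a higher one (median r of all pairs 0.10). Both genes were almost unrelated to the total count of a mouse, with r of -0.078 for Myc and 0.0096 for Ccnd1. All genes of a mouse share 1 size factor.

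Cdk2 was tied more loosely to both, at a level where counting error was estimated, roughly, to be most of its spread. The part of counting error in the looser tie was not tested. With Myc its within-group r over the 55 mice was 0.41 and rho 0.30, and r was 0.35 without the 2 farthest mice. Within the extraction batches it was 0.26, 0.45 and 0.45. In the 28 mice at 7 and 30 days r and rho were both 0.39 (permutation p = 0.0634 and 0.0598, the same after adjustment over 3 pairs), and r was 0.39 without the 2 farthest. With Ccnd1 r over the 55 mice was 0.35 and rho 0.34, r was 0.23 without the 2 mice farthest in Ccnd1, and within the batches it was 0.53, 0.21 and 0.35. In the 28 later mice both were 0.40 (permutation p = 0.0629 and 0.0562, adjusted 0.0634 and 0.0598), and r was 0.29 without the 2 farthest. Neither relation of Cdk2 passed the threshold in the later mice. Cdk2 had an r of -0.27 with the total count.

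**Figure D3:**
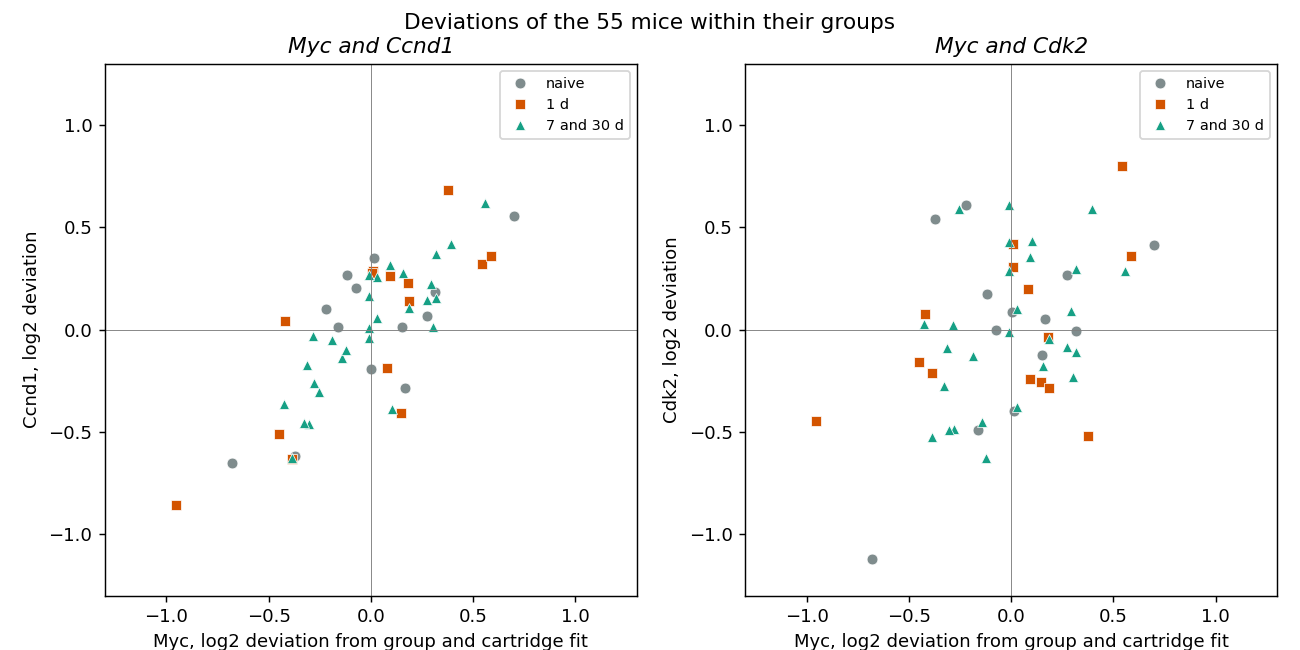
Log2 deviations of each of the 55 mice from their group and cartridge fit, Ccnd1 against Myc on the left and Cdk2 against Myc on the right, with grey circles for naive mice, orange squares for 1 day and green triangles for 7 and 30 days. The Myc and Ccnd1 points lie along a rising band (r = 0.78) and the Myc and Cdk2 points are more scattered (r = 0.41).

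The panel genes most like each member over the 55 mice, by r of cartridge-adjusted log2 values, are given as a description, since these values hold the differences between groups. For Myc they were Ccnd1 (r = 0.85), Tnfrsf12a (0.78), the receptor of the cytokine TWEAK, Tnfrsf1a (0.77), a receptor of TNF, Wfs1 (0.77), a protein of the endoplasmic reticulum, and Itga7 (0.77), an integrin that binds laminin. Over the 8 group means their r to Myc was 0.93, 0.89, 0.99, 0.94 and 0.91. For Ccnd1 they were Myc, Stat3 (0.80), Olig2 (0.78), a transcription factor of the oligodendrocyte lineage, Wfs1 (0.77) and Nes (0.77). Their r to Ccnd1 over the group means was 0.93, 0.93, 0.94, 0.88 and 0.93. For Cdk2 they were Tspo (0.65), a mitochondrial protein high in reactive glia, Cp (0.59), the ferroxidase ceruloplasmin, Lox (0.58), which cross-links collagen, Csf2rb (0.57), a shared cytokine receptor chain, and Myc (0.56). Over the group means these were 0.81, 0.79, 0.81, 0.74 and 0.81. An r above 0.5 was reached by 8.02% of genes for Myc, 9.52% for Ccnd1 and 4.14% for Cdk2.

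Astrocyte markers were called higher at 1 day on both diets. On PLX5622 limma called 5 of 11 measured astrocyte markers higher at 1 day than in naive mice (Gfap, Aldh1l1, Cd44, Nes and Hspb1), 2 of 10 of endothelium and pericytes (Pecam1 and Eng), 2 of 16 of microglia (Itgam and Cd68), 1 of 8 of the oligodendrocyte lineage (Olig2), 1 of 6 of border macrophages and leukocytes (Ccr2) and 0 of 9 of neurons. On vehicle 3 astrocyte markers (Gfap, Cd44 and Tspo) were called higher and 1 neuronal marker (Stx1a) lower, and 0 genes of the other 4 lists were called. Over the whole panel 6.76% of genes were called higher and 0.25% lower on PLX5622, and 1.88% and 0.375% on vehicle. Gfap was 2032 to 4619 at 1 day against 146 to 645 in naive mice on PLX5622, and 1037 to 3948 against 248 to 554 on vehicle, with no overlap on either diet. The summed astrocyte markers were 17114 to 32834 at 1 day against 16162 to 30553 in naive mice on PLX5622, and 18833 to 27071 against 14530 to 20623 on vehicle. The summed leukocyte markers were 43.4 to 102 at 1 day against 30.0 to 60.9 in naive mice on PLX5622, and 45.3 to 104 against 39.6 to 74.7 on vehicle. The summed endothelial and pericyte markers were 1216 to 2989 at 1 day against 1136 to 1986 in naive mice on PLX5622, and 1212 to 2304 against 1143 to 1908 on vehicle. The summed oligodendrocyte markers were 4967 to 11881 at 1 day against 4442 to 13149 in naive mice on PLX5622, and 7973 to 10035 against 5810 to 14239 on vehicle. Within groups, r to Gfap, Nes and Cd44 was 0.56, 0.62 and 0.59 for Myc and 0.58, 0.61 and 0.68 for Ccnd1, and r to Csf1r was 0.24 and 0.34. For Myc and Ccnd1 the r to Olig2 was 0.61 and 0.66, to the endothelial marker Pecam1 0.52 and 0.39, and to Tspo 0.32 and 0.36. Other markers of the same cell types had lower r. For Sox10, also of the oligodendrocyte lineage, it was 0.38 and 0.25, and for Cldn5, also endothelial, 0.28 and 0.29. The part of these cell types in the 1 day levels was not tested, and in tissue a change in the number of cells and a change in RNA per cell cannot be told apart.

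The rest of the machinery around these genes is thinly covered. Of 193 other genes on 8 lists of the cycle, its inhibitors and the signals above it, 57 are on the panel. None of the 12 genes of the Myc network (Max, the Mxd proteins and others) is, and of 32 cyclins, kinases and replication genes only Pcna, the sliding clamp of DNA polymerase, is measured. Pcna differed at 1 day from naive mice by -0.033 ± 0.14 (SE) on PLX5622 and 0.15 ± 0.15 on vehicle (limma adjusted p = 0.926 and 0.764). Cdkn1a, which encodes the inhibitor p21 and is the one measured of 16 genes of CDK inhibitors, Rb and E2F, differed by 0.48 ± 0.27 on PLX5622 and 0.75 ± 0.29 on vehicle (limma adjusted p = 0.354 and 0.199). On vehicle edgeR and DESeq2 both called Cdkn1a at 1 day against naive mice and at 7 days against 1 day. Vehicle mice at 1 day had 63.0, 84.6, 97.5, 116, 220 and 422, against 60.2 to 111 in naive vehicle mice, so the ranges overlapped. The mice at 220 and 422 were both of extraction batch 3.

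Among the 57 genes, limma called 2 higher and 0 lower at 1 day on PLX5622, and 0 higher and 1 lower on vehicle. Over the panel the shares called were 6.76% higher and 0.25% lower on PLX5622, and 1.88% higher and 0.375% lower on vehicle. The median log2 difference of the 57 was 0.050 on PLX5622 and -0.0034 on vehicle, against 0.098 and -0.043 over the panel. All 3 called genes are on the list of factors upstream of Myc and Ccnd1, where 15 of 37 were measured. By list, 0 of 5 measured cyclins and kinases outside the cycle, 0 of 6 genes of p53 and the DNA damage checkpoint, 0 of 16 relays of Ras, MAPK and PI3K and 0 of 13 mitogens and receptors were called on either diet. Unadjusted, 7 of the 57 on PLX5622 and 4 on vehicle had p under 0.05. Over the panel of 799 genes the same counts were 146 on PLX5622 and 104 on vehicle, a larger share on both diets.

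Stat3, which carries interleukin 6 family signals to the nucleus, was 73.7 to 341 at 1 day on PLX5622 (median 200.4), against 64.7 to 150 in naive PLX5622 mice (median 93.3). It rose by 1.10 ± 0.22 (SE; limma adjusted p = 5.3e-04), and the ranges overlapped. On vehicle it was 159 to 276 (median 192) against 108 to 164 in naive mice (median 125), a difference of 0.77 ± 0.24 with adjusted p = 0.0607 in limma, and these ranges overlapped too. The vehicle difference was called after centring on the sample median, by edgeR and by DESeq2. The PLX5622 call held without any one of the 14 mice.

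Rela, the p65 subunit of NF-kappaB, rose on PLX5622 by 0.52 ± 0.17 (SE; limma adjusted p = 0.0497), with 51.3 to 128 at 1 day (median 88.7) against 49.5 to 85.8 in naive mice (median 59.3). That call ended when any one of 10 of the 14 mice was left out, and Rela was not called without the cartridge term, after centring on the sample median, by edgeR or by DESeq2. Its vehicle difference was 0.12 ± 0.18, with limma adjusted p = 0.866. Egr1, an immediate early gene of neuronal activity and growth signals, fell on vehicle by 1.38 ± 0.38 on the log2 scale (SE; limma adjusted p = 0.0385), with 361 to 2029 at 1 day (median 979) against 978 to 4523 in naive mice (median 2110). That call ended without any one of 6 of the 13 mice (691, 695, 697, 706, 714 or 720) and without the cartridge term. Egr1 was still called after centring on the sample median, by edgeR and by DESeq2. On PLX5622 the Egr1 difference was -0.37 ± 0.35, with limma adjusted p = 0.625.

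In the other 14 comparisons limma called 0 of the 57 genes, with 1 to 7 genes at an unadjusted p under 0.05 in each. Over the panel of 799 genes, limma called 0% to 4.13% in each of these comparisons, and 29 to 120 genes had an unadjusted p under 0.05. In 5 of these 14 edgeR called 1 or 2 of the 57, and so did DESeq2. Over the panel, in those 5, edgeR called 6 to 43 genes and DESeq2 4 to 57.

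**Figure D4:**
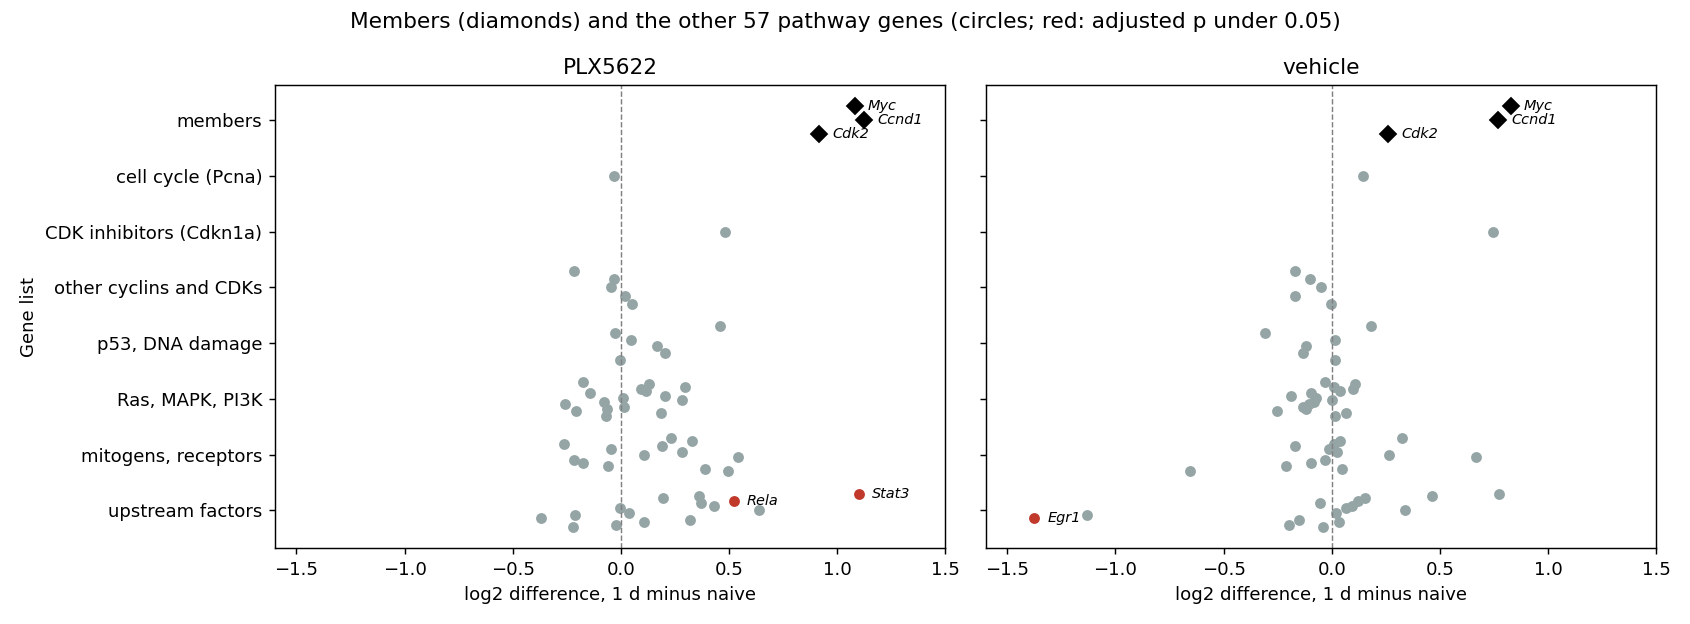
Log2 differences between 1 day and naive mice for Myc, Ccnd1 and Cdk2 (diamonds) and the 57 measured genes of the lists (circles, red where the limma adjusted p is under 0.05), on PLX5622 at left and vehicle at right. The called genes are Stat3 (1.10) and Rela (0.52) on PLX5622 and Egr1 (-1.38) on vehicle, and most other circles lie within 0.5 of 0.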

How the data were processed

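Cortical RNA of 55 mice was measured on a nanoString nCounter panel of 799 genes. Per the labels' protocols, regions were dissected from thick frozen sections, RNA was isolated with a kit for small samples and amplified before counting, with cycles set from Gapdh and Actb. The deposited values are a signal on a linear scale, counts divided by 1 size factor per mouse, and DESeq2 is named in the submitters' processing notes without a version. Division by the value of 1 count recovered whole counts for 100% of values in each mouse (tolerance 0.02). Mice were grouped by diet and injury labels. Mouse 695 carries 7d in its title and naive in its injury label, and was kept as naive. Counts of every pair of mice within a group differed by more than sampling noise (smallest chi-square ratio 5.66).

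Values were fitted as log2(value + 1) with limma 3.58.1 (R 4.3.3; lmFit, eBayes with trend), 8 group means and the 5 cartridges, all mice in 1 fit, with two-sided tests and Benjamini-Hochberg adjustment over 799 genes at 0.05. This scale understates differences of low genes such as Cdk2. EdgeR 4.0.16 and DESeq2 1.42.0 were run on the recovered counts as alternatives. Other alternatives were the covariate, the scaling, the pseudocount, a mean filter of 20, eBayes settings, fewer groups, each mouse left out, exact permutation and values within the 3 RNA extraction batches. Batch 3 is cartridges 4 and 5, and all mice of cartridge 1 are in batch 1, so batch and cartridge are partly one. Correlations used residuals and 1e+05 shuffles within groups. The p-values planned over all 55 mice are not printed, since naive and 1 day mice served the choice of the genes, and those over the 28 later mice were added after seeing the data. The fit was tested on simulated data. The members and lists were chosen with earlier results of these data known. Named genes were the 3 members, up to 4 called genes per list and comparison, the 5 genes most like each member, and markers. A search of protein motifs was not run.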

Additional observations from a re-analysis of the deposited data

Results flagged for a closer look

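Of 48 sets of values, 8 groups for each of Myc, Ccnd1, Cdk2, Stat3, Rela and Egr1, 2 held a mouse far from the others of its group by Dixon's test, which by chance marks about 1 in 20. Cdk2 in PLX5622 mouse 733 at 30 days was 16.9 normalised counts, against 10.9 to 13.2 in the other 6 mice. Stat3 in PLX5622 mouse 708 at 30 days was 66.1, against 125 to 165 in the other 6.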

How the results depend on the processing

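Of 747 differences of Myc, Ccnd1 and Cdk2 recomputed with 1 mouse left out, 717 kept their sign and 30 changed it, the largest of them at a size of 0.13. Under the other alternatives outside single batches 555 of 572 kept their sign and 17 changed it, the largest at a size of 0.055. Within single extraction batches 103 of 126 kept their sign and 23 changed it, at sizes of up to 0.90. Of the 126, 29 moved by more than the SD between mice, with or without a change of sign. A further 3 also moved by more than that SD and are counted apart as reversed. No alternative called any of the 15 tested differences (lowest adjusted p 0.312). The 1 day difference ranged outside single batches from 0.95 to 1.25 for Myc, 1.00 to 1.26 for Ccnd1 and 0.49 to 1.07 for Cdk2 on PLX5622, and from 0.67 to 1.17, 0.66 to 1.00 and 0.16 to 0.39 on vehicle. Among the 15 tested differences, sign changes outside single batches were these: with cartridge and extraction batch together, Myc was -0.055 between diets at 30 days and -0.029 for diet by day; centred on the sample median, it was 6.43e-05 between diets at 7 days and -0.027 at 30 against 7 days on vehicle, where edgeR gave -0.0056 and DESeq2 -0.024. With 1 mouse left out, Myc ranged from -0.11 to 0.019 between diets at 7 days, from -0.078 to 0.10 at 30 days and from -0.046 to 0.13 for diet by day, and Cdk2 from -0.25 to 0.032 at 30 against 7 days on vehicle. Within extraction batch 1 alone, the 1 day difference on PLX5622 was 0.57 for Myc, 0.16 for Ccnd1 and 0.069 for Cdk2, and on vehicle 1.14 for Cdk2. Ccnd1 on PLX5622 was 1.69 within batch 2, and within batch 3 Cdk2 on PLX5622 was 1.38 and Myc on vehicle 1.20. In batch 1, Cdk2 was -0.27 at 7 days against naive on PLX5622, 0.21 between diets in naive mice, -0.44 between diets at 30 days and 0.42 at 30 against 7 days on vehicle, and Ccnd1 was 0.18 at 7 against 1 day on PLX5622. In batch 3 Ccnd1 was -0.85 between diets at 30 days. The within-group r of Cdk2 was also taken in naive, 1 day and later mice alone, a split chosen after seeing the data. With Myc it was 0.43 in naive mice, 0.43 at 1 day and 0.39 at 7 and 30 days, against 0.41 over all 55 mice. With Ccnd1 it was 0.29, 0.36 and 0.40, against 0.35 over all 55 mice and 0.23 without the 2 farthest of them. The causes of these changes were not tested.

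Of the 57 other pathway genes, 1 on PLX5622 and 0 on vehicle were called at 1 day without a covariate, and 1 on PLX5622 and 2 on vehicle after centring on the sample median, which also called 1 each at 7 days against naive on vehicle, at 7 against 1 day on PLX5622 and between diets at 1 day. At 1 day on vehicle edgeR and DESeq2 each called 3. Both called 1 at 7 days against naive on vehicle, 2 at 7 against 1 day on vehicle, 1 between diets at 7 days and 1 at 30 against 7 days on vehicle, and edgeR 1 and DESeq2 2 at 7 against 1 day on PLX5622. With 1 mouse left out the number called was 1 to 3 at 1 day on PLX5622 and 0 to 1 at 1 day on vehicle, at 7 days against naive on vehicle, at 7 against 1 day on both diets and between diets at 7 days. Over all genes, limma, edgeR and DESeq2 called 18, 44 and 51 at 1 day on vehicle, 12, 11 and 28 at 7 days against naive on PLX5622, and 19, 39 and 57 at 7 against 1 day on PLX5622. Depth limits Cdk2 most, at 4 to 29 barcodes per mouse. No paired analysis was possible because a mouse number belongs to 1 mouse and links none across groups. A filter on a mean under 20 removed Cdk2, so that setting gave no value for it.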
